A study of Mus musculus with 2 samples.

Results

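The transcripts described here are the noncoding RNAs that carry a RefSeq noncoding accession (prefix NR_) on a mouse Agilent expression array. They were read in LSK cells, the bone marrow or fetal liver fraction that lacks lineage markers and carries Sca-1 and Kit, in which blood stem and progenitor cells are found. The members were found by that accession, and the rule uses no measured value. Both arrays held 1216 such probes, and 1076 of them were analysed, out of 55664 probes that are not controls. They report on 953 transcripts by gene symbol, of which 848 had 1 probe and 105 had several. Left out were 58 probes of genes on the sex chromosomes, 3 probes of 2 imprinted genes, and 79 probes whose accession had no entry in the reference table, so that their chromosome could not be checked.

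The study compared LSK cells of 2 ages, each hybridised to 1 single-colour array. The adult cells came from the bone marrow of wild-type C57BL/6 mice that were 8 weeks old. The fetal cells came from the liver of wild-type embryos at E14.5, for which the labels used here name no strain. Neither group had been through transplantation. With 1 array per group no difference below has a replicate check and no p-value is given. Age, tissue, array and, as far as the labels go, strain cannot be told apart. RNA from a smaller number of cells and less RNA per cell also cannot be told apart in such bulk samples.

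Long noncoding RNAs are spliced and often polyadenylated like messenger RNAs, but act as RNA or through the act of their transcription, and many start from the same promoter region as a coding gene or run antisense to one. Some are carriers: small nucleolar RNA (snoRNA) host genes hold snoRNAs in their introns, and microRNA host transcripts are cut to release microRNA hairpins. Others organise the nucleus or act at imprinted loci, where only the copy from 1 parent is expressed. Many host genes of snoRNAs are known to begin with a run of pyrimidines (C and T), the feature of the 5′ terminal oligopyrimidine messages that also encode ribosomal proteins. In blood formation, microRNA clusters of the miR-17 and miR-15 families are known regulators of progenitor growth and survival.

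The mature microRNAs carried by the host transcripts that are described later are shown first, since the array reads the host and not the product. The seed, bases 2 to 8, is in capitals, and the sequences are those of RefSeq for GRCm38.p6.
mmu-miR-22-5p: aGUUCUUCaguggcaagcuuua
mmu-miR-22-3p: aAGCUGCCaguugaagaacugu
mmu-miR-15a-5p: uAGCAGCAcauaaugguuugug
mmu-miR-16-5p: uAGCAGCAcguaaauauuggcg
mmu-miR-92a-3p: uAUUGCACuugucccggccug
The first pair lies in Mir22hg on chromosome 11. The next pair lies in Dleu2 on chromosome 14 and shares the seed AGCAGCA. The last is a product of Mir17hg, also on chromosome 14.

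The start regions of 5 snoRNA host genes are shown because these hosts span the range of differences found in their group, from Snhg12, the lowest in fetal liver, to Snhg3, the highest. Each window runs from 25 bases before the annotated start to 35 bases after it, on the gene's own strand, and capitals mark the longest run of C and T that begins between 10 bases before the start and base 20.
Snhg12: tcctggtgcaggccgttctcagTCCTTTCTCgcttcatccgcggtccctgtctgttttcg
Snhg7: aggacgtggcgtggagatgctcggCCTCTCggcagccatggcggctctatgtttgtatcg
Snhg16: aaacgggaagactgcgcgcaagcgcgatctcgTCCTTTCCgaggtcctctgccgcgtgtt
2410006H16Rik: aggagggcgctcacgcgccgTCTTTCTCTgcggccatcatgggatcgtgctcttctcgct
Snhg3: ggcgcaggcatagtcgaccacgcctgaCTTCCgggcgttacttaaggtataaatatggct
In GRCm38.p6 these windows lie at chr4:132308653-132308712 (Snhg12, plus strand), chr2:26640210-26640269 (Snhg7, minus strand), chr11:116671635-116671694 (Snhg16, plus strand), chr11:62602852-62602911 (2410006H16Rik, plus strand) and chr4:132353652-132353711 (Snhg3, minus strand). A run of at least 7 pyrimidines, any order of C and T on the gene's strand, was present in 9 of the 12 snoRNA hosts with a promoter entry (75%). It was present in 123 of the 608 noncoding members with an entry (20.2%) and in 5204 of 27025 promoters of all genes (19.3%). Snhg7 and Snhg3 were among the hosts without it. Because the run could begin anywhere in the stretch searched, these are not shares of transcripts that begin with one. In Dancr, which was counted, the run began at base 14.

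Before the noncoding results, the labels were checked against marker genes. All 8 LSK markers on the list were well above background on both arrays, with Kit at a log2 difference of 0.005 and Ly6a, which encodes Sca-1, at -2.28 (fetal liver minus bone marrow throughout). Of 9 erythroid markers 5 had a fetal liver excess of 2-fold or more, and their summed signal was 21800 in bone marrow and 111000 in fetal liver. Of 10 neutrophil markers 7 had a bone marrow excess of 2-fold or more, with summed signals of 75200 and 20800. The T and NK cell list summed to 18200 and 4670, with Cd8a dim on both. Of its 8 genes 3 had a bone marrow excess of 2-fold or more and 1 a fetal liver excess. The latter was Gzma, dim in bone marrow and at 75.5 in fetal liver (a bound of 3.03). Cd3e was also on the fetal side, at 0.52. The hepatocyte list summed to 2490 and 1280, with 4 of its 8 genes, Alb, Apoa1, Ttr and Ahsg, dim on both arrays. Of the other 4, Afp was at 1540 and 483 (-1.26), Fgb at 53.0 and 2.22 with fetal liver dim (a bound of -2.01), Apoa2 at 871 and 769 (0.24) and Serpina1a at 13.0 and 16.3 (0.75). The B cell list summed to 4250 and 4000, with Cd79a, Ms4a1 and Pax5 dim on both. Of 6 megakaryocyte markers 3 had a bone marrow excess of 2-fold or more and 1 a fetal liver excess. Of 8 endothelial and stromal markers 2 had a fetal liver excess and none a bone marrow excess. Of 7 macrophage markers on the array 1 passed 2-fold on each side. The part of these cell types in the noncoding differences was not tested.

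Noncoding transcripts were read above background less often than coding ones. A probe was counted as well above background by the scanner software's own flag, and a transcript was read from its brightest probe. Of the 953 transcripts, 348 (36.5%) were well above background in bone marrow and 341 (35.8%) in fetal liver, against 63.8% and 63.1% of genes with coding (NM_) accessions. There were 311 on both arrays, 37 on the bone marrow array alone and 30 on the fetal liver array alone. The remaining 575 (60.3%) were dim on both. For these the arrays set only an upper limit, and they enter none of the counts that follow. The lowest signal of any probe flagged as above background was 12.4 for bone marrow and 9.82 for fetal liver.

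Between the 2 sources the noncoding transcripts as a whole sat close to even. Each difference is on the log2 scale after dividing every array's signals by their 75th percentile, which was 178.9 in bone marrow and 134.0 in fetal liver. The signals printed below are before that division, so equal signals correspond to a higher scaled value in fetal liver. The median difference was 0.01 for noncoding transcripts and 0.11 for coding genes. Among transcripts above background on both arrays the differences spread with an SD of 0.74 across noncoding transcripts, against 0.79 across coding genes. The median technical error of a noncoding difference, propagated from the scanner software's error model, was 0.21, and it does not cover variation between animals.

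Among 378 noncoding transcripts read above background in 1 or both sources, 23 (6.08%) exceeded bone marrow by 2-fold or more in fetal liver, and 25 (6.61%) differed as much the other way. The same shares over all 13385 named genes were 6.72% and 8.17%, and over 12996 genes with coding accessions 6.75% and 8.21%. In this main scaling the noncoding shares thus lay near the background. The fetal share of these noncoding calls was 47.9%. It was 17.5% when the arrays were scaled on spike-in RNAs instead, a scaling that lowered the differences of transcripts read on both arrays by 0.335. Changes are therefore given relative to the array's 75th percentile. Under background correction by normexp the calls fell to 6 and 9 of the 378. The shares over all named genes then were 2.83% and 4.53%, so the noncoding calls fell further than those of all named genes.

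**Figure D1:**
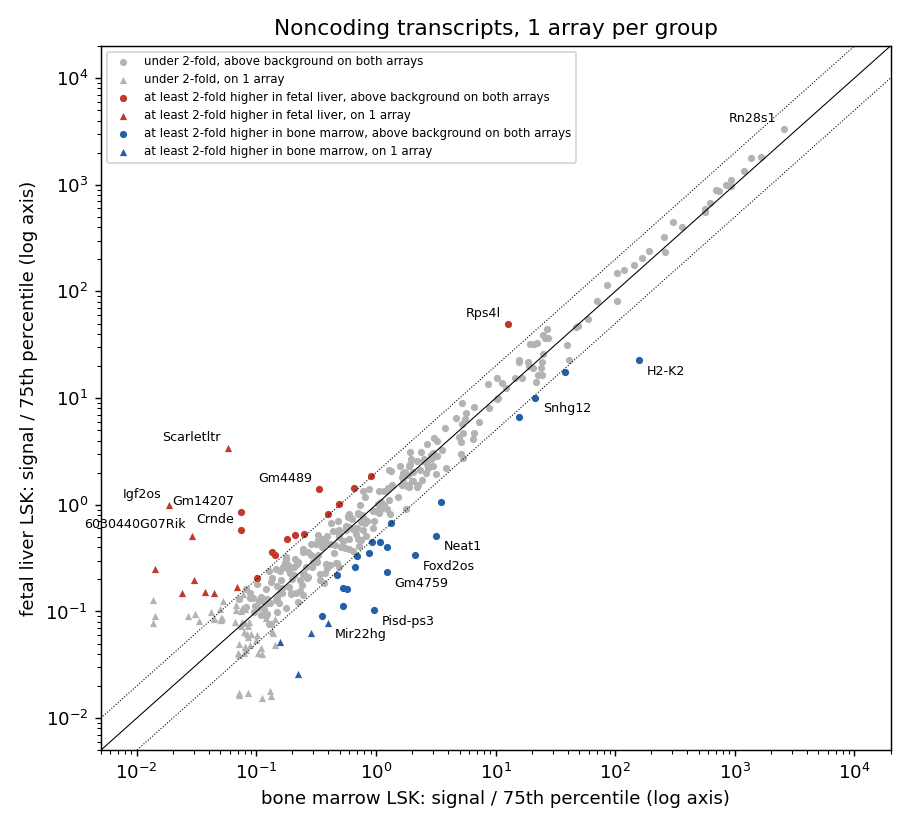
Signal of each noncoding transcript divided by the array's 75th percentile, bone marrow on the horizontal and fetal liver on the vertical log axis, 1 array each. Colour marks at least 2-fold differences and triangles mark transcripts above background on 1 array alone. Most points lie near the diagonal, with 23 transcripts past 2-fold on the fetal liver side and 25 on the bone marrow side.

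The transcripts higher in fetal liver were led by Scarletltr on chromosome 9, an erythroid long noncoding RNA. Its signal was 10.3 in bone marrow, where it was dim, and 452 in fetal liver, which made it at least 48.8-fold higher there. A bound sets the value of the array that read the transcript against the higher of 2 values on the other array, the transcript's own and the lowest that counted as above background there. It stood beside the erythroid marker list, whose summed signal was also higher in fetal liver. Of the adjacent coding genes, Smad6, an inhibitory SMAD of BMP signalling, had signals of 95.9 and 236 (1.71), and Lctl had a difference of -0.55.

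Igf2os, the antisense transcript of the growth factor gene Igf2 on chromosome 7, had signals of 3.33 and 134 with the fetal value higher by at least 3.85 on the log2 scale. Igf2 itself was dim in bone marrow at 2.96 and read at 63.0 in fetal liver, a log2 bound of 2.77. Both members of this locus were thus above background in fetal liver alone.

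Gm14207 on chromosome 2, which overlaps the Notch ligand gene Dll4, had signals of 13.4 and 114, a difference of 3.50 ± 0.34 (technical error) or 11.3-fold. Dll4 was dim on both arrays, and the adjacent genes Vps18 and Chac1 were at 0.68 and -0.24. Crnde on chromosome 8, a long noncoding RNA first described in colorectal tumours, had signals of 13.4 and 78.1, a difference of 2.96 ± 0.35 or 7.78-fold. Irx3 and Irx5, the homeobox genes beside it, were dim on both arrays. For both transcripts the bone marrow signal lay just above the lowest signal counted as above background.

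The other transcripts on the fetal side were mostly unnamed gene models, RIKEN clones and pseudogenes. 6030440G07Rik had signals of 5.23 and 68.9 with the fetal value at least 7.44-fold higher. Gm4489 had signals of 59.8 and 187, a difference of 2.06 ± 0.21 or 4.17-fold, and its neighbour Rxylt1 was at -0.21. D4Ertd617e was dim in bone marrow at 2.53 and read at 33.3 in fetal liver, at least 3.59-fold higher. Rps4l, a pseudogene related to the ribosomal protein gene Rps4x, had signals of 2261 and 6581 and a difference of 1.96 ± 0.20. A probe for a pseudogene can pick up RNA of its parent or of other copies, so the source of such signals is uncertain.

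The Speer family, known from spermatogenic cells, has many similar copies and gave 3 transcripts past 2-fold. Speer6-ps1 on chromosome 13 had signals of 32.4 and 64.4 (1.41), Speer1 on chromosome 5 had 163 and 251 (1.04, with its other probe at 1.74), and Speer5-ps1 on chromosome 10 had 45.0 and 70.6 (1.07). Because these copies resemble each other closely, their signals may not be separate measurements.

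The transcripts higher in bone marrow were led by Pisd-ps3, a pseudogene of the mitochondrial phosphatidylserine decarboxylase gene Pisd. Its signals were 173 and 13.8, a difference of -3.24 ± 0.31, which is 9.43-fold. Pisd itself was at -0.93 and the related Pisd-ps1 at -0.57, so the other copies differed by less.

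H2-K2, a pseudogene of the major histocompatibility complex (MHC) class I cluster on chromosome 17, had signals of 28515 and 3045. That is a difference of -2.81 ± 0.20 or 7.02-fold, with its probes between -2.81 and -2.73. The coding class I gene beside it, H2-K1, had signals of 102705 and 13231 and a difference of -2.54, while the neighbour on the other side, Vps52, was at 0.13. H2-K2 and H2-K1 are similar in sequence and cross-reading was not tested.

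Neat1 on chromosome 19, the RNA scaffold of nuclear paraspeckles, had signals of 572 and 68.6, a difference of -2.64 ± 0.21 or 6.25-fold higher in bone marrow. The coding gene Frmd8 beside it was at 0.27. Malat1, the nuclear speckle RNA on the same chromosome, had signals of 226 and 192 and a difference of 0.18 ± 0.21, which is within its technical error and turned to -0.15 under spike-in scaling.

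Foxd2os, the opposite-strand transcript beside the forkhead gene Foxd2, had signals of 380 and 44.9, a difference of -2.67 ± 0.21 or 6.35-fold. Foxd2 lay on the same side, with signals of 304 and 62.4 and a difference of -1.87. Mir22hg, the host of miR-22 whose sequences are printed above, had signals of 71.0 and 10.4 with the bone marrow value at least 5.12-fold higher. Its neighbours Wdr81 and Tlcd2 were at 0.32 and -0.14.

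Gm4759, a transcribed pseudogene on chromosome 7 beside the very large interferon-inducible GTPase gene Gvin1, had signals of 219 and 31.2 and a difference of -2.40 ± 0.23. Its other probe was at -2.98. Gvin1 had signals of 2494 and 856 and a difference of -1.13. As for other pseudogenes, RNA of related copies may be read by these probes, which was not tested. 4933421O10Rik, which shares a divergent start region with the ubiquitin-conjugating enzyme gene Ube2j1, had signals of 95.7 and 14.9 and a difference of -2.26 ± 0.33. Ube2j1 was at -1.04. Rbakdn, the transcript downstream of the zinc finger gene Rbak, had signals of 624 and 141 and a difference of -1.73 ± 0.21, while Rbak was at 0.32.

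Several others had lower signals. Gm5129 was at 51.6 and 8.44, where it was dim in fetal liver, with a bound of -1.98, but its other probe gave -0.77. 4930520O04Rik was at 63.3 and 12.2 (-1.96), while the collagen-modifying gene Crtap that overlaps it was at -0.05. 2210416O15Rik was at 103 and 21.9 (-1.82), and the overlapping Cuedc1 at 0.44. D130020L05Rik was at 95.5 and 22.3 (-1.68), and the overlapping Ppp4r3a, a regulatory subunit of protein phosphatase 4, at 0.06. None of these 3 overlapping coding genes was lower in fetal liver by more than the median technical error. AI504432 was at -1.37, with its probes reaching -0.70, and its neighbour Kcna3, a potassium channel gene of lymphocytes, was at -0.87.

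Further transcripts higher in bone marrow included 4833418N02Rik, at 221 and 53.4 (-1.63), whose divergent partner Ttc7 was at -0.94. Lppos, antisense to the Lpp gene, was at 156 and 47.0 (-1.32). Lpp was at -0.69, and the adjacent Bcl6, the gene of a transcriptional repressor, was at 627 and 49.8 (-3.24). Pvt1, the long noncoding RNA downstream of Myc, was at 194 and 60.1, a difference of -1.27 ± 0.21, but its other probe gave -0.11. Myc was at -0.54. A330009N23Rik, at 239 and 89.6 and just past 2-fold, lay next to the orphan nuclear receptor gene Nr4a1, which was at -2.92. At higher signals, 0610009L18Rik was at 2802 and 899 (-1.22) while Actg1, the cytoplasmic actin gene with which it shares a divergent start, was at -0.15. Selenok-ps1 was at 6803 and 2344 (-1.12), close to its parent Selenok at -0.91. The transcript nearest to 2-fold without reaching it was 1700027A15Rik on the fetal side (0.99) and 4930539J05Rik on the bone marrow side (-0.97).

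Of 22 snoRNA host genes on the list, 13 were on the array and all 13 were well above background on both arrays. In 10 the difference was negative and in 3 positive, with a median of -0.11 against 0.01 over all noncoding transcripts. Of all noncoding transcripts 179 were negative and 193 positive. Snhg12 alone passed 2-fold, with signals of 3855 and 1353 and a difference of -1.09 ± 0.20. Its neighbour Trnau1ap, a gene of selenoprotein synthesis, was at 0.31.

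Snhg7 followed, with signals of 954 and 369 and a difference just short of 2-fold (-0.95). Snhg16 was at 3909 and 1906 (-0.62), but its other probe gave 0.51, so the array gives no single direction for it. Snhg5 was at 436 and 228 (-0.52). These hosts produce snoRNAs that guide chemical modification of ribosomal RNA.

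Within the same group several hosts hardly differed. Snhg1 was at 2956 and 2051 (-0.11), Snhg17 at 297 and 206 (-0.11) and 1110038B12Rik at 8672 and 6299 (-0.04), each within the technical error of about 0.20. 2410006H16Rik was at 18344 and 10839 (-0.34), and Dancr, known for holding progenitor cells undifferentiated, was at 487 and 297 (-0.29). On the positive side Snhg3 was at 4650 and 4936 (0.50), Snhg18 at 56.4 and 57.0 (0.43) and Snhg6 at 12478 and 10879 (0.22). Under spike-in scaling Snhg6 turned to -0.12, which left 2 hosts positive and 11 negative. Snhg12 and Snhg16 hold a pyrimidine run in the windows printed above, as does 2410006H16Rik. Snhg7 and Snhg3, which lay on opposite sides of 0, have shorter runs.

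**Figure D2:**
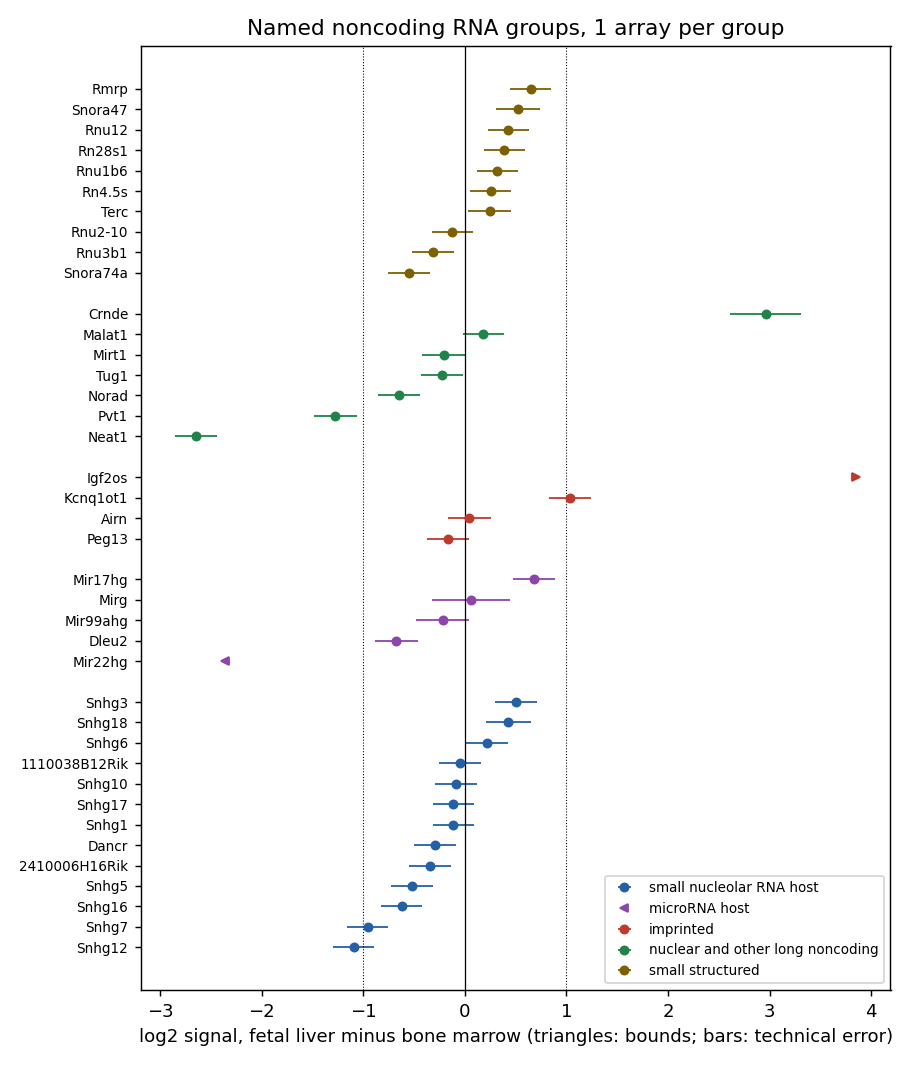
Log2 difference, fetal liver minus bone marrow, for the transcripts of the named groups, with bars for the technical error and triangles for bounds, 1 array per source. The snoRNA hosts lie between -1.09 and 0.50, while Neat1 and Mir22hg lie below -2 and Igf2os lies above 3.

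Of the microRNA host transcripts 7 of a list of 14 were on the array and 5 were above background. Mir22hg was the one past 2-fold. Mir17hg, which carries the miR-17 to miR-92a cluster, had signals of 156 and 187 and a difference of 0.68 ± 0.21. Dleu2, which carries miR-15a and miR-16-1, had signals of 133 and 62.5 and a difference of -0.67 ± 0.21. The hosts of these clusters thus lay on opposite sides of 0, each by about 3 times its technical error in the main scaling. Under spike-in scaling Mir17hg fell to 0.345 and Dleu2 to -1.008, so the signs stayed opposite but the multiples of the error changed. The technical error does not cover variation between animals. Mir99ahg was at 41.2 and 26.6 (-0.21 ± 0.26) and turned to 0.15 under normexp. Mirg was at 18.6 and 14.6 (0.06 ± 0.39) and turned to -0.28 under spike-in scaling. Mir100hg and Mir9-3hg were dim on both arrays. The levels of the mature microRNAs were not measured.

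Of the imprinted noncoding RNAs 8 of 13 were on the array and 5 were above background. Besides Igf2os, Kcnq1ot1, the long antisense transcript that silences its cluster on the paternal copy, was past 2-fold in fetal liver. Its signals were 87.8 and 135 and its difference 1.04 ± 0.21, with the other probe at 1.35. That difference fell to 0.70 under spike-in scaling. Cdkn1c, the cell cycle inhibitor gene of the same cluster, was at 535 and 1396 (1.80), while Kcnq1 and Trpm5 were dim on both.

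Airn, the antisense transcript of the Igf2r locus, was at 87.3 and 67.5 (0.05 ± 0.21), and Peg13 at 4407 and 2947 (-0.16 ± 0.20). Airn turned to -0.29 under spike-in scaling. Gnasas1, Ipw and Peg3os were dim on both arrays.

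Among other long noncoding RNAs with broad expression, Norad, which binds Pumilio proteins, had signals of 1151 and 550 and a difference of -0.65, with its 4 probes between -0.90 and -0.36. Tug1 was at 322 and 207 (-0.22), and its 3 probes reached 0.42. Of the 6 transcripts of this list above background, 2 were positive and 4 negative, with a median of -0.44. Of the 7 blood and immune long noncoding RNAs on the array, 5 were above background. All of these but Mirt1 are also on other lists: Mir17hg and Dleu2 as microRNA hosts, Pvt1 and Neat1 as broadly expressed. The blood and immune list is thus not a separate group. In that list 1 was positive and 4 were negative, with a median of -0.67. Mirt1 was at 125 and 81.2 (-0.21), while Morrbid, a regulator of myeloid cell survival, and Mirt2 were dim on both. From the Hox clusters Hoxa11os (0.38) and Evx1os (-0.82) were each above background on 1 array alone, and Hoxd3os1 was dim on both.

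The small structured RNAs were 10 transcripts, all above background on both arrays and none past 2-fold. Of these 7 were positive and 3 negative, with a median of 0.29. Under spike-in scaling that became 4 positive and 6 negative. Over all noncoding transcripts 193 were positive and 179 negative, and 111 and 259 under spike-in scaling. Rmrp, the RNA of the mitochondrial RNA processing ribonuclease, was at 1543 and 1813 (0.65). Terc, the template RNA of telomerase, was at 87.8 and 78.0 (0.25) and turned to -0.09 under spike-in scaling. The ribosomal RNA transcript Rn28s1 was at 457018 and 448803 (0.39), and Snora74a was at 405 and 207 (-0.55). As background, labelling of this kind starts from poly(A) tails, and how RNAs without such tails entered the label was not tested.

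The members were also grouped by naming class. Of 431 RIKEN clones 138 were above background on at least 1 array, with a median difference of -0.06. Of 174 pseudogenes 90 were, with a median of 0.14, 55 of them positive and 35 negative, which became 32 and 56 under spike-in scaling (median -0.19). Of 147 Gm gene models 48 were (median 0.02, and -0.30 under spike-in scaling), and of 64 antisense transcripts 24 were (median 0.21, and -0.12 under spike-in scaling). Over all named genes 7719 differences were positive and 5653 negative, with a median of 0.105, and of -0.229 under spike-in scaling. The pseudogenes lay near that background. The 10 transcripts with the highest signals were the same on both arrays. They were Rn28s1, Rn4.5s and 8 pseudogenes, among them Gm8580 at 297769 and 241956 (0.12) and Gm10653 at 242265 and 240592 (0.41), and none of the 10 differed by more than that. Signals of pseudogene probes this high may come from their parent genes or other copies, which was not tested.

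**Figure D3:**
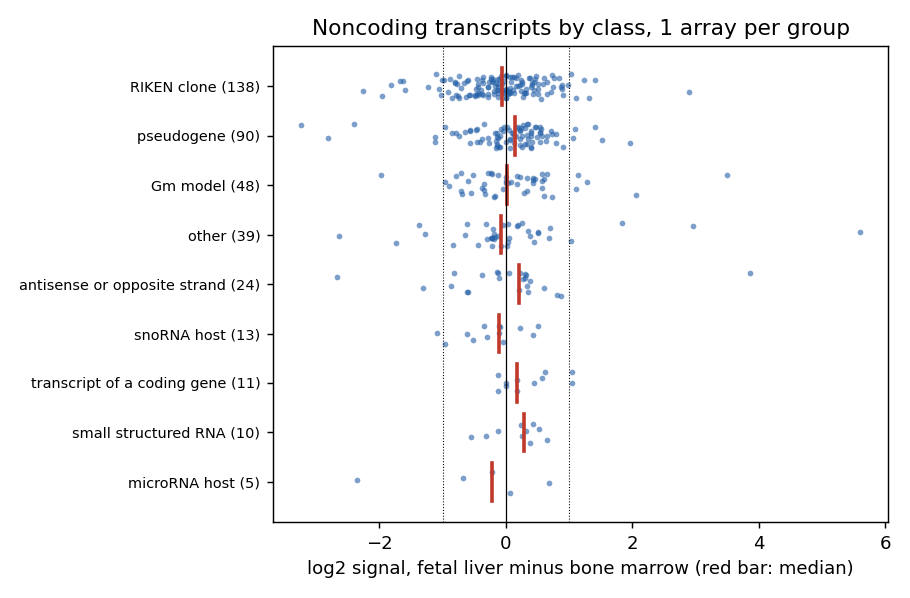
Log2 difference of each noncoding transcript above background on at least 1 array, by naming class, with a red bar at the class median, 1 array per source. The class medians shown lie close to 0 beside the spread of single transcripts, and pseudogenes have a median of 0.14, which was -0.19 under spike-in scaling.

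Antisense transcripts were set beside the coding genes they are named for. In 20 pairs both transcripts were above background on at least 1 array, and in 17 of these (85.0%) both differences had the same sign. The agreeing pairs of Dio3os, Foxl2os, Igf2os, Plxna4os1 and Rab11fip4os1 hold at least 1 bound. A bound takes its sign from the array that read the transcript. Some of these lay near background, such as Dio3os at 9.07 and 11.7. Pearson's r across the pairs was 0.92, and 0.70 without the 2 pairs with the largest differences, Igf2os with Igf2 and Foxd2os with Foxd2. These are values across genes on the same 2 arrays, given as a description. The same-sign count was 17 under spike-in scaling and 16 under normexp, its lowest, among the scalings tried.

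Among single pairs, Appbp2os was at 0.81 and Appbp2 at 0.45, Zfp652os at -0.60 and Zfp652 at -0.26, and Stk35os1 and Stk35 both at 0.35. The 3 pairs of opposite sign had small differences on at least 1 side. Phtf1os was at 0.31 and Phtf1 at -0.04, Med9os at 0.06 and Med9 at -0.09, and Rab10os at -0.61 and Rab10 at 0.04. By RefSeq positions, Igf2os and Lppos overlap their partners, and Foxd2os lies next to its partner.

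For coding neighbours before a member the signs were the same in 141 of 262 pairs (53.8%, r 0.12), and for neighbours after it in 147 of 262 (56.1%, r 0.13). For coding genes that overlap a member the signs were the same in 72 of 129 pairs (55.8%, r 0.25), and for divergent starts within 1 kb in 26 of 49 (53.1%, r 0.30). Pseudogenes and their parent genes had the same sign in 9 of 11 pairs (81.8%, r 0.49). Without the 2 pairs of largest member difference in each set, r was 0.07 before, 0.14 after and 0.13 for overlapping genes. It was then 0.16 for divergent starts and 0.41 for pseudogenes and parents. Some antisense pairs, such as Igf2os with Igf2 and Appbp2os with Appbp2, also count among the overlapping or divergent ones. Hmga2-ps1 had signals of 311 and 273 (0.23) while its parent Hmga2, a chromatin protein gene of fetal stem cells, had 286 and 3857 (4.17).

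**Figure D4:**
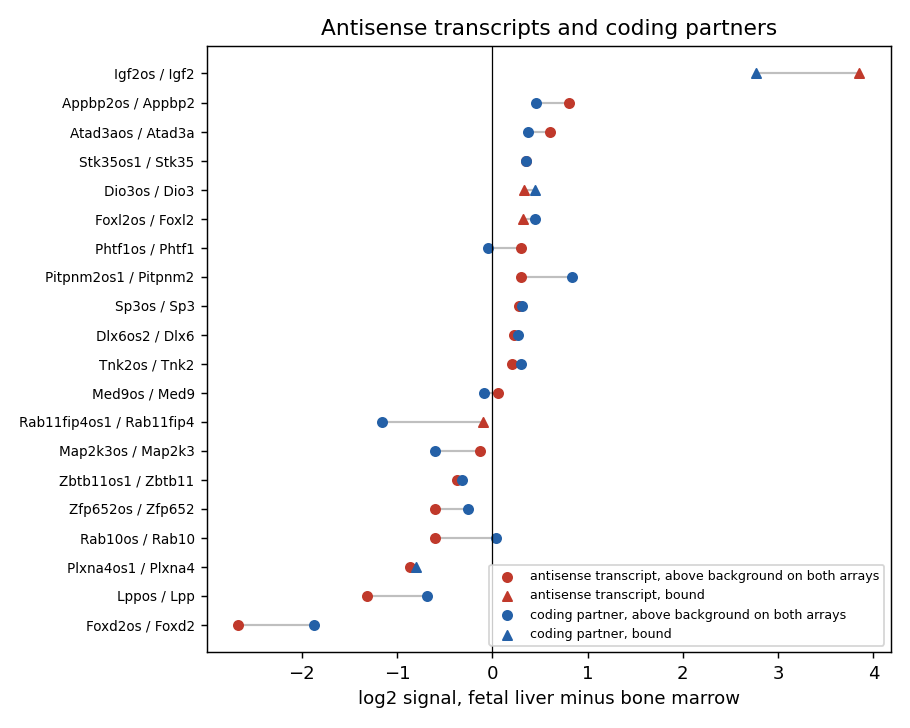
Log2 difference, fetal liver minus bone marrow, of the antisense transcript and of its coding partner, 1 array per source. The 20 pairs are those in which both were above background on at least 1 array, and triangles mark bounds. In 17 of the 20 pairs both differences have the same sign, and the pair of Igf2os and Igf2 lies farthest to the fetal side.

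Separate probes gave a further view of precision. For 45 transcripts with several probes above background, the median range between probes was 0.32 on the log2 scale. It was under 0.5 for 27 of them and at least 1 for 6, which included Snhg16, Pvt1 and Gm5129. The widest range, 2.26, was that of 1700001L05Rik, with probes at -2.55 and -0.29. Its brightest probe gave -0.29, so it was not among the calls. No transcript had probes past 2-fold in opposite directions.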

How the data were processed

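Total RNA (20 ng) of LSK cells was labelled with Cy3 and read on 1 Agilent array per source. Per the file headers, the authors extracted spot intensity with Feature Extraction 10.7.1.1; the deposited processed signal is on a linear scale after background subtraction. Each value in the authors' deposited table is a linear ratio, by comparison with the scanner files the processed signal over 1 constant per array. No label or header used here says how the constant was set. Signals were divided by each array's 75th percentile over non-control probes (178.9 and 134.0) and taken to log2, leaving out outlier spots. A transcript was read from its brightest probe. Where it was well above background on 1 array alone, the difference is a bound. Errors are the software's signal errors, propagated. Depth has no meaning for arrays; the 2 arrays limit the precision. Calls are differences of at least 2-fold, with no test.

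Members and lists were chosen with earlier results of these data known. The rule for named transcripts took the members of the lists, the 20 largest differences on each side, the 10 highest signals on each array, any with probes past 2-fold in opposite directions, and the partners and neighbours of these. Probes of 2 imprinted genes are not reported here. Names, positions and sequences came from RefSeq tables for GRCm38.p6, which held promoters for 608 members. The calculation was tested on simulated data. Alternatives were spike-in scaling, the percentile over probes above background on both arrays, quantile normalization, normexp (limma 3.58.1, R 4.3.3, offset 50, on the median signal), other filters and probe rules, and, chosen after seeing the data, adding the probes without a reference entry. Scripts used Python 3.11.15, numpy 2.4.6 and pandas 2.3.3.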

Additional observations from a re-analysis of the deposited data

How the results depend on the processing

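The counts past 2-fold, 23 on the fetal side and 25 on the bone marrow side, became 11 and 52 with spike-in scaling, which moved the median difference to -0.30 and that of the snoRNA hosts to -0.45. They became 6 and 9 with normexp, and 71 and 70 with no filter on dim transcripts. Over all named genes the shares past 2-fold were 3.8% and 13.1% with spike-in scaling, and 2.83% and 4.53% with normexp. With only transcripts above background on both arrays 14 remained on the fetal side. With the percentile over probes above background on both arrays, quantile normalization, the authors' deposited values, the mean over probes, outlier spots kept, and the added probes without a reference entry, both counts stayed within 1.5 times these. Of the 20 largest differences on each side, 11 and 20 stayed past 2-fold under spike-in scaling, and 6 and 8 under normexp. Spike-in scaling lowers all of these differences by the same 0.335. Their signs under it, and the 20 bone marrow calls, were therefore fixed in advance and are no check. Under normexp all kept their sign, but those that are bounds could not have reversed. Under normexp Scarletltr was at 2.98, Crnde at 1.22, Neat1 at -1.95 and Mir22hg at -0.67. The causes of these changes were not tested. Signals near or below background on 1 array limit Gm14207, Crnde, Igf2os and D4Ertd617e, among others. No paired analysis was possible because each group has 1 array and the groups share 1 replicate number.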
